A study of Mus musculus with 18 samples.

Results

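The transcripts described here are 10 messenger RNAs whose proteins store, translate or destroy the messages that a mouse egg leaves to the embryo. They were taken by RefSeq identifier from the 26823 transcripts counted, and all 10 were present. Cpeb1 (NM_007755) and Ybx2 (NM_016875) serve storage, Eif4e (NM_007917) and Pabpc1 (NM_008774) translation, and Cnot7 (NM_011135), Btg4 (NM_019493) and Zfp36l2 (NM_001001806) decay. Dicer1 (NM_148948) and Ago2 (NM_153178) belong to the small RNA pathway, and Ddx4 (NM_010029) to the germ granules. All 10 passed the filter of at least 10 counts in at least 3 embryos, so none was lost from the comparison of the groups.

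The samples were 18 single 2-cell embryos on the 129SVE background. A group of 9 came from wild-type (WT) fathers 1, 2 and 3, and a group of 9 from Parg(110)-/- fathers 6, 7 and 8, with 3 embryos per father. The genotype is that of the father. The disrupted gene encodes poly(ADP-ribose) glycohydrolase, which removes poly(ADP-ribose), and the study asked whether altered sperm chromatin of such males is followed by altered transcripts in their embryos. All mothers were wild-type 129SVE mice mated naturally, so every egg was made by a wild-type female and embryos of Parg(110)-/- fathers carried 1 disrupted allele. Embryos of one father share that father. A name such as 7-1 gives the father and then the embryo.

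Transcription stops in the fully grown mouse oocyte, and the egg lives on stored messages until the embryonic genome is switched on at the 2-cell stage. Many stored messages have short poly(A) tails and are held silent by proteins on their 3′ untranslated regions, are given longer tails and translated during meiotic maturation, and are then deadenylated and destroyed. Cytoplasmic polyadenylation is directed by a short U-rich element near the poly(A) signal, which CPEB1 binds.

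Totals lay between 2852858 and 13355161 counts per WT-fathered embryo and between 3560501 and 12497060 per Parg(110)-/--fathered embryo. Levels are given as CPM, the count per 1000000 counts of that total, and intervals of counts cover counting error only. The 5 oocyte markers (Gdf9, Bmp15, Zp3, Nlrp5 and Oosp1) were counted in 18 of 18 embryos and summed to between 546 and 1761 CPM. The 5 markers of genome activation (Zscan4c, Zscan4d, Zfp352, Tdpoz4 and Eif1a) summed to between 13.8 and 105 CPM. Of these, Tdpoz4 was counted in 18 embryos, Eif1a in 17, Zscan4d and Zfp352 in 16 each, and Zscan4c in 14. The 7 cumulus cell markers summed to at most 9.82 CPM, with Fshr, Amh, Foxl2, Ptx3 and Inha at 0 in every embryo. Cyp19a1 had a count in 10 embryos, at up to 9.82 CPM, and Has2 in 1, at 0.594 CPM. The 5 sperm markers summed to at most 0.174 CPM. Parg had a median of 78.4 CPM in the WT group and 46.7 CPM in the Parg(110)-/- group, with ranges of 32.0 to 138 and 25.2 to 77.3 CPM that overlapped. In an RNA pool, fewer transcripts per embryo and a larger pool of other RNA cannot be told apart.

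The element bound by CPEB1 was looked for in the annotated 3′ end of 1 transcript of each gene. The last 300 bases of the longest coding transcript of each gene in GENCODE vM1 on mm9 (the build of the counts) were searched on the sense strand for the letters TTTTAT or TTTTAAT. They were found for 8 of the 10 genes, and not for Eif4e or Zfp36l2. Among 14789 genes with such a window, 35.4% held them, as did 37.7% of the 9198 genes with a tested transcript. The windows of the 10 genes had a median A+T content of 62.2%, against 59.0% over all genes, and the part of base composition in the count of 8 was not tested. A match describes the sequence and is not evidence that the site is used. The transcript searched need not be the RefSeq transcript that was counted. That of Cnot7 ends short of the gene, whose 3′ end is at chr8:41577894, so its matches are those of a form with an earlier end. The match nearest to the transcript end is shown for each of the 8 genes, with the element in capitals and the DNA letters read 5′ to 3′ on the gene's strand:
Cpeb1, chr7:88492142-88492171, minus strand: ttgacttttctTTTTAATttaacgattact
Ybx2, chr11:69755034-69755063, plus strand: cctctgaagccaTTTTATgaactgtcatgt
Pabpc1, chr15:36525592-36525621, minus strand: aacaaattaatgTTTTATagaccctgggaa
Cnot7, chr8:41578392-41578421, minus strand: tcttaaggtacaTTTTATatcaataaaaat
Btg4, chr9:50927902-50927931, plus strand: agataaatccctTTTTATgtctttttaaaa
Dicer1, chr12:105925971-105926000, minus strand: tttctttttctTTTTAATaattgtagtcaa
Ago2, chr15:72932232-72932261, minus strand: tttgttcagccaTTTTATttgtctcaagtt
Ddx4, chr13:113388579-113388608, minus strand: acaaatgtttgcTTTTATaatatacagatt

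The distance from the start of the element to the start of the last poly(A) signal (AATAAA, held by 69.9% of all windows) was 9 bases in Cnot7, 17 in Dicer1 and 27 in Ddx4. It was 166 in Ago2, 173 in Pabpc1 and 229 in Cpeb1. In Btg4 all 3 elements lay downstream of the only AATAAA in the window, and the Ybx2 window held no AATAAA. Cnot7, which encodes a deadenylase, held 4 elements in the searched transcript, of which 2 overlap by 1 base. Btg4 held 3, whereas the other 6 genes held 1 each. The AU-rich pentamer ATTTA, a part of the sites that proteins of the ZFP36 family bind, was found in Cpeb1, Ybx2, Pabpc1, Cnot7 and Btg4 and in 44.1% of all windows. The Pumilio word TGTANATA was found only in Dicer1 among the 10, and in 9.87% of all windows.

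The 10 transcripts spanned a wide range of levels. Divided by transcript length and averaged over the 18 embryos, Btg4 was highest at 177 CPM per kilobase, followed by Pabpc1 at 153 and Eif4e at 150. Next came Ybx2 at 54.5, Cnot7 at 47.1 and Dicer1 at 40.4 CPM per kilobase. Ddx4 at 8.18, Ago2 at 4.88, Cpeb1 at 2.49 and Zfp36l2 at 1.22 CPM per kilobase made up the low end. Of the 14580 tested transcripts with a length, 98.4% lay below Btg4 and 28.6% below Zfp36l2.

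Only 2 neighbours in this order stood apart by more than their spread (mean minus SD of the higher above mean plus SD of the lower). Eif4e was above Ybx2 in 17 of 18 embryos, and Dicer1 was above Ddx4 in 18 of 18. The other neighbours overlapped, and by the median in place of the mean Pabpc1 and Eif4e, and Ybx2 and Cnot7, changed places. Together the 10 transcripts summed to between 1534 and 2110 CPM in the WT group (median 1865) and between 1396 and 2033 CPM in the Parg(110)-/- group (median 1903), so the sums overlapped.

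**Figure D1:**
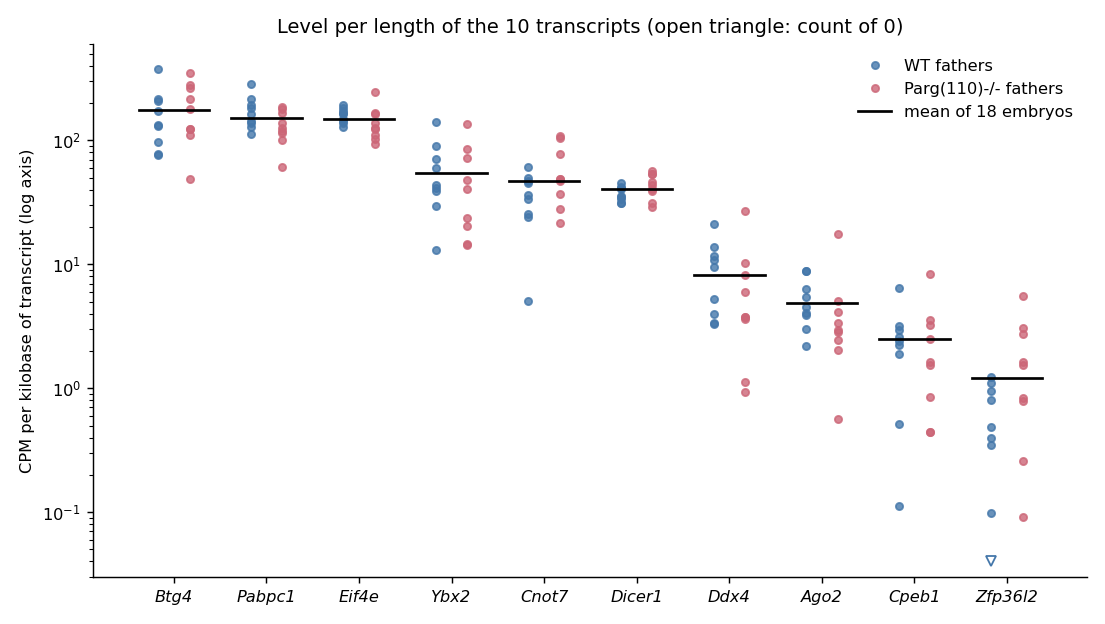
CPM per kilobase of transcript (log axis) of the 10 transcripts in each of 18 embryos, blue for WT fathers and red for Parg(110)-/- fathers, with the mean of all 18 as a black line; an open triangle marks a count of 0. Btg4, Pabpc1 and Eif4e lie highest, at means of 150 to 177, and Zfp36l2 lowest, at 1.22.

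Set beside their relatives on the same per-length scale, some of the 10 led their gene family and others did not. Btg4 was the highest of 6 BTG/TOB genes in 18 of 18 embryos, with a median of 77.5% of the family's summed level. Pabpc1 was the highest of 5 cytoplasmic poly(A)-binding protein genes in 18 of 18, with a median share of 83.0%, and Pabpc1l, known as the embryonic form, had 3.34%. Ybx2 was never the highest of its family. Ybx1 took a median of 87.4% of the Y-box sum and Ybx2 2.42%.

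Eif4e was the highest cap-binding relative in 7 embryos and Eif4e1b, an oocyte form, in 11, with median shares of 34.7% and 51.1%. The deadenylase pair Cnot7 and Cnot8 led in 9 embryos each, with median shares of 42.6% and 42.7%. Ago2 was the highest Argonaute in 10 embryos, Ago3 in 7 and Ago1 in 1, and Ago4 had a median of 0. Cpeb1 was the highest CPEB gene in 4 embryos and Cpeb4 in 11. Zfp36l2 led its family in 10 embryos and Zfp36 in 8, both at low levels, and Zfp36l3 had no count in any embryo. Reads that mapped to more than 1 place were discarded by the authors, which makes the levels of genes with processed copies elsewhere in the genome, such as Eif4e, Pabpc1 and Ybx1, uncertain.

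None of the 10 transcripts was called differentially expressed between the 9 Parg(110)-/--fathered and the 9 WT-fathered embryos. With edgeR's quasi-likelihood test and Benjamini-Hochberg adjustment over 15333 transcripts, 0 of the 10 had an adjusted p below 0.1, where 0% of all transcripts did. At an unadjusted p below 0.05 there were again 0 of 10, against 5.8% of all transcripts. DESeq2 called 0 of the 10 where it called 0.248% of all, and at an unadjusted p below 0.05 it had 1 of 10 (Zfp36l2, whose adjusted p was 0.637), against 7.03% of all. The fitted level was higher in the Parg(110)-/- group for 5 of the 10, as for 49.0% of all transcripts, and the median log2 fold change was -0.08 for the 10 and -0.02 for all. The ranges of the groups overlapped for every one of the 10, and so did the ranges of the means of the 3 fathers.

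**Figure D2:**
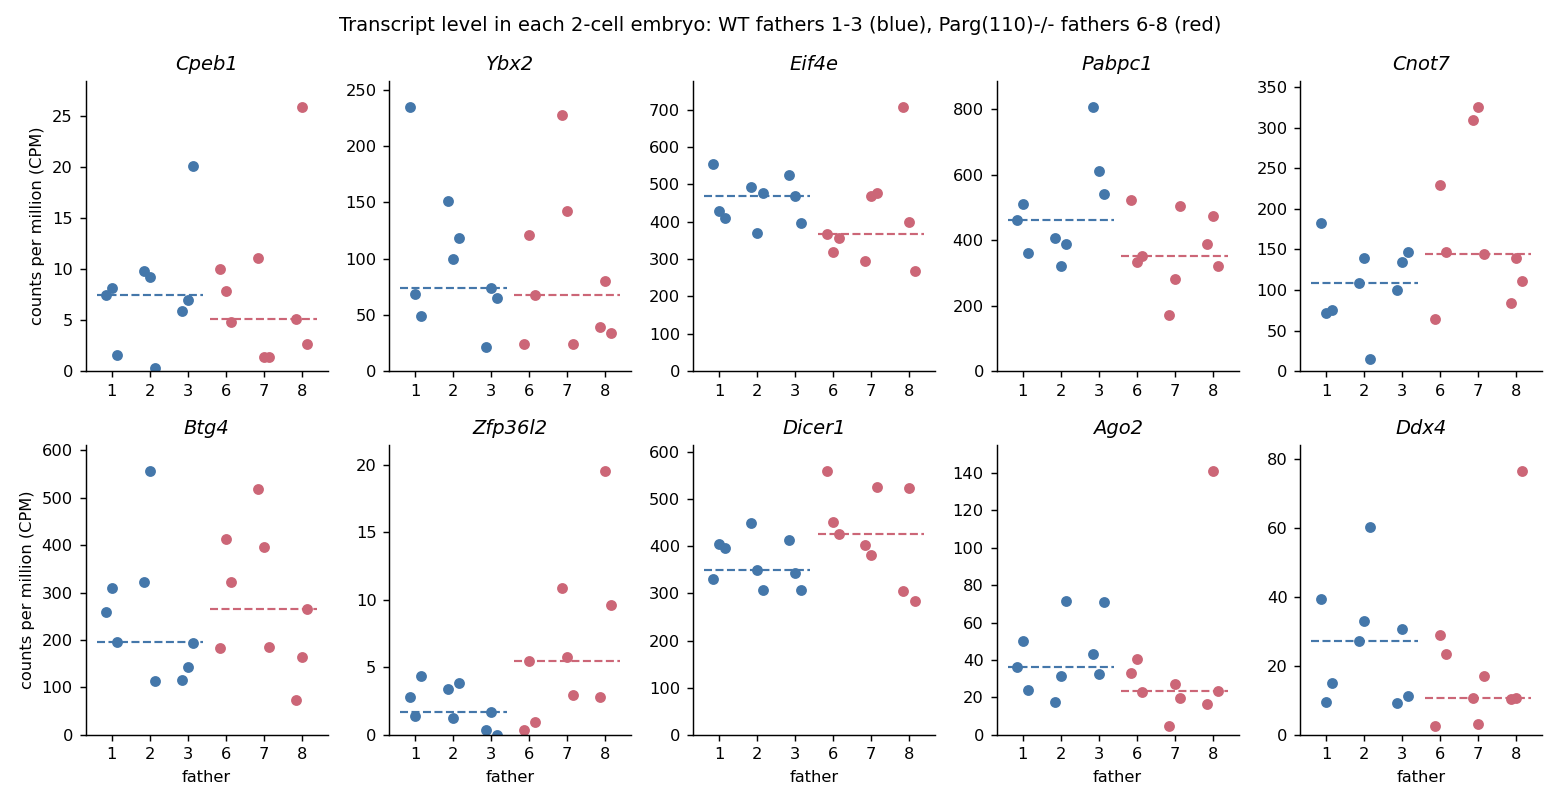
CPM of the 10 transcripts in each embryo, arranged by father, blue for WT fathers 1 to 3 and red for Parg(110)-/- fathers 6 to 8, with the group medians as dashed lines; each panel has its own axis from 0. Points of both colours overlap in every panel, and single embryos such as 8-2 for Ago2 at 141 CPM lie far above the rest of their group.

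Cpeb1 encodes the protein that binds the element shown above, at first holding a message silent and then promoting its polyadenylation. The gene lies on the minus strand of chr7:88491912-88600351 (mm9) and holds the pseudogene Rpl7a-ps9 on the opposite strand. Its level ran from 0.350 CPM in embryo 2-3, where it had 1 count, through a median of 7.48 to 20.04 CPM in embryo 3-3 in the WT group. It ran from 1.37 in embryo 7-3 through 5.06 to 25.8 CPM in embryo 8-2 in the Parg(110)-/- group. Both groups had 1 embryo well above the others, and their ranges covered nearly the same span. The log2 fold change of Parg(110)-/- over WT was 0.02 (SE 0.76, adjusted p = 0.9998 in edgeR), and leaving out embryo 8-2 gave -0.46.

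Ybx2 (chr11:69749298-69755107, plus strand) encodes the germ cell Y-box protein that coats and stabilises stored messages in oocytes. In the WT group it ran from 21.9 CPM in embryo 3-1 through 73.5 to 234 CPM in embryo 1-1, and in the Parg(110)-/- group from 24.1 in embryo 7-3 through 67.4 to 227 CPM in embryo 7-1. The ranges were almost the same in both groups, and 4 of 9 Parg(110)-/--fathered embryos lay above the WT median. Its log2 fold change was -0.21 (SE 0.46, adjusted p = 0.991 in edgeR).

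Eif4e encodes the protein that binds the 5′ cap and starts translation. The gene, on the plus strand of chr3:138189155-138220563, contains the microRNA gene Mir1956 on the same strand. The WT group ran from 369 CPM in embryo 2-2 through 470 to 556 CPM in embryo 1-1. The Parg(110)-/- group ran from 268 in embryo 8-3 through 366 to 706 CPM in embryo 8-1, and both ends of the range came from father 8. Of the 9 Parg(110)-/--fathered embryos, 5 lay below the lowest WT-fathered embryo and 1 above the highest. The fitted level was 0.884 times that of the WT group (95% interval 0.683 to 1.14), a log2 fold change of -0.18 (SE 0.19, adjusted p = 0.971 in edgeR).

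Pabpc1 (chr15:36525416-36538728, minus strand) encodes the main cytoplasmic protein on poly(A) tails, which joins the tail to the cap complex. In the WT group it ran from 320 CPM in embryo 2-2 through 463 to 805 CPM in embryo 3-1, and in the Parg(110)-/- group from 171 in embryo 7-1 through 352 to 522 CPM in embryo 6-1. The upper end of the WT group was made by father 3, whose 3 embryos averaged 652 CPM and of which none was below 539.8 CPM, whereas the highest Parg(110)-/--fathered embryo had 522 CPM. The log2 fold change was -0.39 (SE 0.22, adjusted p = 0.901 in edgeR) and lay between -0.60 and -0.26 for the 3 Parg(110)-/- fathers.

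Cnot7 encodes a catalytic subunit of the CCR4-NOT deadenylase, which shortens poly(A) tails. On the minus strand of chr8:41577894-41601201, the gene overlaps Zdhhc2 and Vps37a on the opposite strand. The counting is not stated to use strand, so reads from the overlaps cannot be told apart. The WT group ran from 15.1 CPM in embryo 2-3, the shallowest library, through 109 to 183 CPM in embryo 1-1. The Parg(110)-/- group ran from 64.7 in embryo 6-1 through 145 to 325 CPM in embryo 7-2, and 7 of its 9 embryos lay above the WT median. The fitted level was 1.61 times that of the WT group (95% interval 0.966 to 2.67), a log2 fold change of 0.68 (SE 0.37, adjusted p = 0.891 in edgeR).

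Btg4 (chr9:50924106-50927980, plus strand) encodes the oocyte and early embryo protein that brings CCR4-NOT to maternal messages. The WT group ran from 114 CPM in embryo 2-3 through 196 to 556 CPM in embryo 2-2, so that its lowest and highest embryos had the same father. Among embryos of Parg(110)-/- fathers it ran from 72.5 in embryo 8-1 through 266 to 518 CPM in embryo 7-1. Its log2 fold change was 0.19 (SE 0.35, adjusted p = 0.984 in edgeR), and 5 of 9 Parg(110)-/--fathered embryos were above the WT median.

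Zfp36l2 (chr17:84583271-84587287, minus strand) encodes a zinc-finger protein that binds AU-rich elements and recruits deadenylases. It was the rarest of the 10, with no count in embryo 3-3, which allows up to 0.338 CPM there, a median of 1.71 CPM and a highest value of 4.32 CPM (embryo 1-3) in the WT group. The Parg(110)-/- group ran from 0.320 in embryo 6-1 through 5.43 to 19.5 CPM in embryo 8-2, and 5 of its 9 embryos lay above the highest WT-fathered embryo. The fitted level was 3.05 times that of the WT group, but with a 95% interval of 0.829 to 11.2, a log2 fold change of 1.61 (SE 0.96, adjusted p = 0.908 in edgeR). The log2 fold change was 2.33 for father 8 (SE 1.21), 1.64 for father 7 (SE 1.30) and 0.08 for father 6 (SE 1.51).

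Dicer1 (chr12:105925952-105990162, minus strand) encodes the nuclease that makes microRNAs and, in mouse oocytes, endogenous small interfering RNAs. The WT group ran from 306 CPM in embryo 2-3 through 351 to 449 CPM in embryo 2-1, and the Parg(110)-/- group from 284 in embryo 8-3 through 427 to 560 CPM in embryo 6-1. The wider Parg(110)-/- range enclosed that of the WT group, with 4 of 9 embryos above its highest and 2 below its lowest embryo. The fitted level was 1.17 times that of the WT group (95% interval 0.915 to 1.51), a log2 fold change of 0.23 (SE 0.18, adjusted p = 0.954 in edgeR).

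Ago2 (chr15:72932055-73015377, minus strand, named Eif2c2 in GENCODE vM1) encodes the Argonaute protein that cuts targets paired to small RNAs. The WT group ran from 17.5 CPM in embryo 2-1 through 36.0 to 71.5 CPM in embryo 2-3. The Parg(110)-/- group ran from 4.56 in embryo 7-1 through 23.5 to 141 CPM in embryo 8-2, and only 2 of its 9 embryos were above the WT median. Its log2 fold change of -0.19 (SE 0.49, adjusted p = 0.997 in edgeR) became -0.81 without embryo 8-2.

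Ddx4 encodes the Vasa RNA helicase of germ granules. Its position is chr13:113388541-113442518 on the minus strand, and its second RefSeq transcript in the files, NM_001145885, had the same or a higher count in every embryo (up to 59 against 30, in embryo 7-2), so the pair shares most of its counts. The WT group ran from 9.38 CPM in embryo 3-1 through 27.1 to 60.3 CPM in embryo 2-3. Among embryos of Parg(110)-/- fathers it ran from 2.64 in embryo 6-1 through 10.7 to 76.6 CPM in embryo 8-3, and 2 of its 9 embryos were above the WT median. The log2 fold change was -0.35 (SE 0.60, adjusted p = 0.980 in edgeR) and was -0.97 without embryo 8-3.

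**Figure D3:**
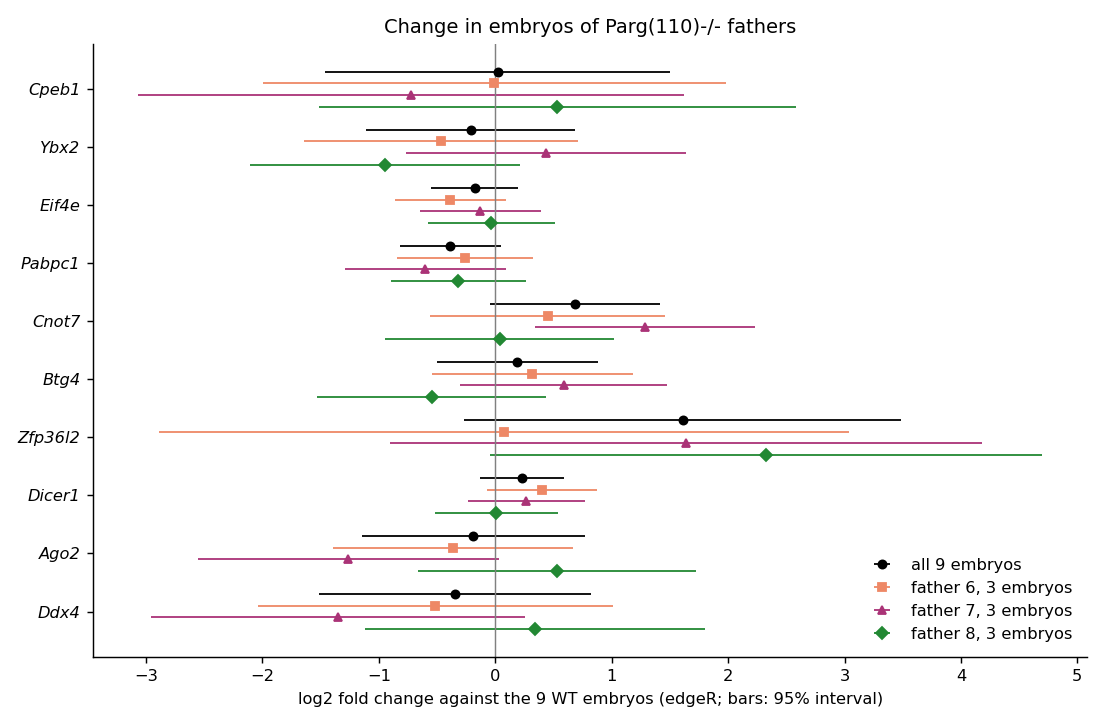
Log2 fold change of each transcript against the 9 WT-fathered embryos from edgeR, for all 9 Parg(110)-/--fathered embryos (black) and for the 3 embryos of each Parg(110)-/- father (coloured), with 95% intervals as bars. The intervals include 0 except for Cnot7 in embryos of father 7, at 1.29.

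Each Parg(110)-/- father was then compared with the 9 WT-fathered embryos, which these comparisons share. No member was called for any father (0 of 10 each), where the share of all transcripts called was 0.00696% with father 6, 0% with father 7 and 0% with father 8. At an unadjusted p below 0.05 there was 1 of 30 member tests, against 8.29% of all tests in the 3 comparisons. This was Cnot7 in embryos of father 7, which averaged 260 CPM against father means of 87.9 to 127 CPM in the WT group (log2 fold change 1.29, SE 0.48, adjusted p = 0.559 in edgeR). Its fold change was 0.45 for father 6 and 0.04 for father 8.

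Fold changes had 1 direction for all 3 fathers in Cnot7, Zfp36l2 and Dicer1, which were fitted higher, and in Eif4e and Pabpc1, which were fitted lower. Several of these values were close to 0 against their error, so their sign carries little. For father 8 they were 0.01 for Dicer1 (SE 0.27), -0.03 for Eif4e (SE 0.28) and 0.04 for Cnot7 (SE 0.50). Zfp36l2 had 0.08 for father 6 (SE 1.51). The share of all transcripts with 1 direction for all 3 fathers was not computed. In the other 5 transcripts 1 father went against the other two. Ago2 and Ddx4 were fitted lower for fathers 6 and 7 (-0.37 and -1.26 for Ago2, -0.51 and -1.35 for Ddx4) and higher for father 8 (0.53 and 0.34), and none of these passed the test. The 3 comparisons share the WT-fathered embryos, so matching directions are not independent. Over all tested transcripts the median log2 fold change was -0.10 for father 6, -0.14 for father 7 and -0.20 for father 8.

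Because each embryo arises from a single sperm, each Parg(110)-/--fathered embryo was also compared on its own with the 9 WT-fathered embryos. Here the spread can be estimated from the WT group only. No member was called in any of the 9 comparisons. The share of all transcripts called was 0.027% in embryo 6-1, 0.0108% in 6-2, 0.0162% in 6-3, 0.157% in 7-1, 0.157% in 7-2, 0.103% in 7-3, 0% in 8-1, 0.0545% in 8-2 and 0% in 8-3.

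At an unadjusted p below 0.05 there were 7 of 90 member tests, 3 higher and 4 lower, against 5.72% of all tests. Embryo 7-1 held 3 of them, with Ago2 at -3.19 (adjusted p = 0.400 in edgeR), Pabpc1 at -1.51 (adjusted p = 0.421) and Cnot7 at 1.51 (adjusted p = 0.660) on the log2 scale. Cnot7 was also high in embryo 7-2, at 1.63 (adjusted p = 0.531). The others were Ddx4 at -3.28 in embryo 6-1 (adjusted p = 0.647), Btg4 at -1.86 in embryo 8-1 (adjusted p = 0.730) and Ago2 at 1.75 in embryo 8-2 (adjusted p = 0.655).

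**Figure D4:**
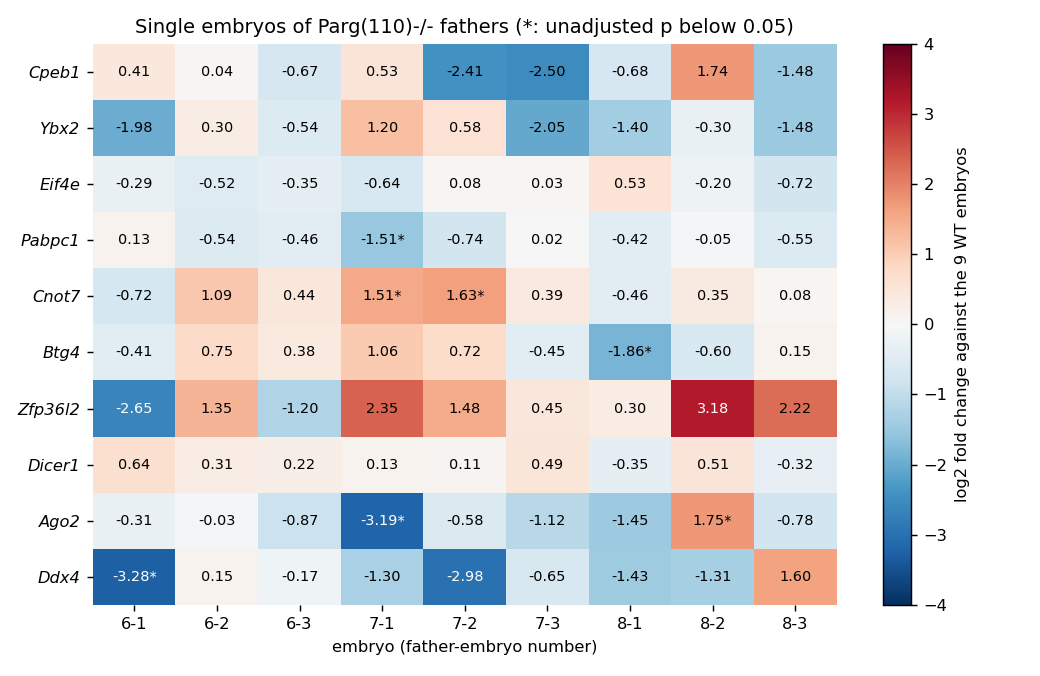
Log2 fold change of each transcript in each single Parg(110)-/--fathered embryo against the 9 WT-fathered embryos, from edgeR, in numbers and colour (red higher, blue lower); a star marks an unadjusted p below 0.05. The 7 stars fall in embryos 6-1, 7-1, 7-2, 8-1 and 8-2, and none of the tests passed the adjusted threshold.

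Across the 9 embryos the fold changes of Dicer1 stayed between -0.35 and 0.64 and those of Eif4e between -0.72 and 0.53. Those of Zfp36l2 ran from -2.65 to 3.18 and those of Ddx4 from -3.28 to 1.60. In embryo 7-2 the second Ddx4 transcript, NM_001145885, had 59 counts against 30, so the low Ddx4 value there depends on the transcript taken. With the same single embryos, most transcripts that DESeq2 called among all transcripts were lower. The member tests that it called were lower as well. They were Ddx4 in embryo 6-1 (-3.33, adjusted p = 0.0480), where it called 4.59% of all transcripts, Ago2 (-3.15, adjusted p = 0.0126) and Pabpc1 (-1.46, adjusted p = 0.0848) in embryo 7-1, where it called 5.29%, and Ddx4 in embryo 7-2 (-2.94, adjusted p = 0.0630), where it called 9.55%.

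The 10 transcripts differed widely in how much they varied between embryos. The coefficient of variation of CPM over the 18 embryos was 20.5% for Dicer1, 24.1% for Eif4e and 33.1% for Pabpc1. Among the 1871 tested transcripts with a mean of at least 100 CPM its median was 40.7%, and 2.51% of them varied less than Dicer1. Btg4 and Cnot7, at 52.8% and 57.2%, varied more than that median. The 5 transcripts with a mean below 100 CPM had 70.5% (Ybx2), 78.7% (Ago2), 84.0% (Cpeb1), 84.7% (Ddx4) and 113% (Zfp36l2). The median of all 15333 tested transcripts was 108%, but these are of every level and are not matched to the 5. Ybx2, with a mean of 91.2 CPM, lay just under the cut of 100 CPM. Its 70.5% was above the upper quartile of 54.6% of the transcripts over that cut. Counting error alone at the mean count would give 1.78% for Dicer1 and 18.4% for Zfp36l2.

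The SD of log2(TMM-normalized CPM + 1) was larger in the Parg(110)-/- group for 8 of the 10 transcripts, as it was for 60.3% of all tested transcripts, and the difference was not tested. It was 0.19 in the WT and 0.40 in the Parg(110)-/- group for Eif4e, 0.20 and 0.35 for Dicer1, and 0.65 and 1.24 for Ago2. Cpeb1, at 1.17 and 1.15, and Cnot7, at 1.05 and 0.81, were the exceptions, and the lowest Cnot7 value of the WT group was that of the shallowest library.

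**Figure D5:**
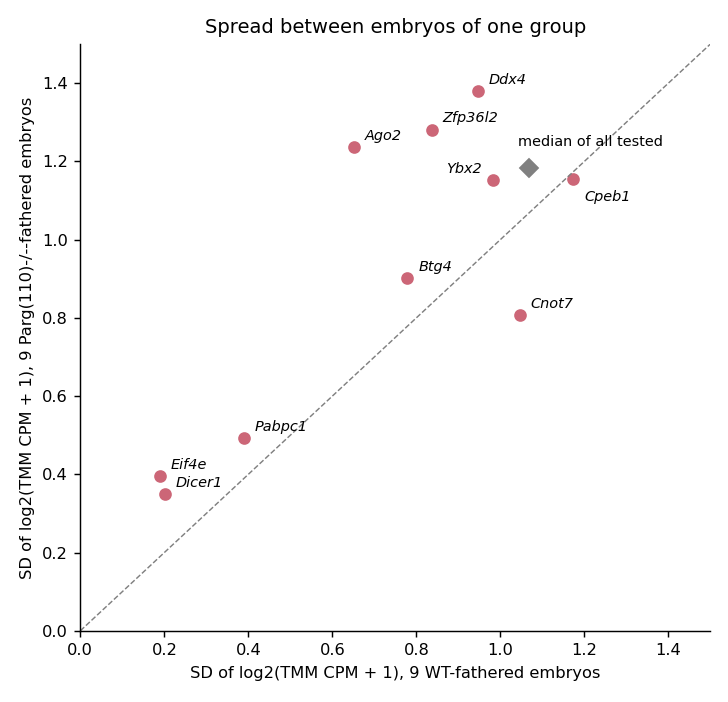
SD of log2(TMM-normalized CPM + 1) over the 9 WT-fathered embryos (horizontal) and the 9 Parg(110)-/--fathered embryos (vertical) for each of the 10 transcripts, with the median of all tested transcripts as a grey diamond and equal spread as a dashed line. Points above the line, 8 of 10, varied more among Parg(110)-/--fathered embryos, and Ago2 lies farthest above it.

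Over the 18 embryos the 10 transcripts did not move as a block. The 45 Pearson correlations of log2(TMM-normalized CPM + 1) between them, whose points share libraries and depth, had a median of 0.04 and ran from -0.59 to 0.60, and 24 were above 0. The decay genes Cnot7 and Btg4 had r = 0.60 (rho = 0.60, 0.46 within the WT and 0.79 within the Parg(110)-/- group). Ybx2 and Btg4 had r = 0.56 (rho = 0.54, 0.46 and 0.69). Translation genes went the other way against Btg4, with r = -0.59 for Eif4e (rho = -0.50, -0.34 and -0.72) and r = -0.58 for Pabpc1 (rho = -0.65, -0.58 and -0.61). Without the 2 embryos farthest from the median of the gene paired with Btg4, these 4 values were 0.54, 0.54, -0.47 and -0.40. The embryos left out can differ between the pairs and were not chosen by their Btg4 level. Pabpc1 and Ago2 had the highest r, 0.60, which was 0.33 without the 2 embryos farthest from the median of Pabpc1. Btg4 itself had r = 0.53 with the log2 total count of the library, and 0.23 without the 2 embryos farthest from the median total. Cnot7 had r = 0.44 with that total (0.86 within the WT and 0.06 within the Parg(110)-/- group), and -0.09 without those 2 embryos. Cpeb1 had 0.41 (0.77 and 0.05), and 0.17 without them. The other members lay between -0.27 (Zfp36l2) and 0.29 (Dicer1). Depth thus moved with some members, and its part in these values was not tested.

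The transcripts whose pattern over the 18 embryos was most like that of a member were searched among 15008 tested transcripts with a symbol, and the highest of so many values are high by selection. Ddx4 was most like Smad1 (r = 0.86, 0.90 within the WT and 0.86 within the Parg(110)-/- group), Btg4 most like AU015836 (0.85, 0.93 and 0.80) and Ybx2 most like Sh3yl1 (0.81, 0.73 and 0.86). Cnot7 was most like Ube2d3 (0.87, 0.91 and 0.74) and Pabpc1 most like Ranbp2 (0.86, 0.77 and 0.88). Eif4e was most like Smg5 (0.81, but 0.54 within the WT and 0.83 within the Parg(110)-/- group). Ago2 was most like Gadd45gip1 (0.80, but 0.40 within the WT and 0.87 within the Parg(110)-/- group). Dicer1 was most like Ints8 (0.78, 0.65 and 0.86) and Zfp36l2 most like Spa17 (0.75, but 0.05 within the WT group). Stag2 (0.79) and Pikfyve (0.78) were among the 3 most like Cpeb1. The next of the others were Mpzl1 and Osbpl8 for Ybx2, Tmem167b and Paip2 for Eif4e, Crebrf and Ctsb for Pabpc1, and Dnm1l and Dhx32 for Cnot7. They were Dock9 and Bmp5 for Btg4, Tlcd5 and Pde10a for Zfp36l2, Znhit1 and Ergic2 for Dicer1, Zdhhc12 and Mettl3 for Ago2, and Fbxw22 and Epb41 for Ddx4.

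The other genes of these pathways were taken from a list of 159 symbols, of which 148 were found with 213 transcripts and 202 transcripts were tested. In the comparison of 9 with 9 embryos edgeR called 0 of 202 (0% of all transcripts), with 12 (5.94%) at an unadjusted p below 0.05, which is close to the 5.8% of all transcripts. DESeq2 also called 0, against 0.248% of all. The fitted level was higher in the Parg(110)-/- group for 111 and lower for 91, and the median log2 fold change was 0.05. By role, 20 of 27 deadenylation transcripts (18 genes) were fitted higher (median 0.31), as were 16 of 28 that recruit decay to sequence elements (17 genes, 0.24). So were 13 of 18 of the germ granule and piRNA pathway (13 genes, 0.16) and 7 of 11 of the small RNA pathway (9 genes, 0.13). At an unadjusted p below 0.05 in edgeR there were 0, 4, 1 and 0 of these. Among all tested transcripts 49.0% were fitted higher. A read counts on every isoform, so transcripts of one gene are not independent. Of the decapping, uridylation and exonuclease transcripts 12 of 32 were fitted higher (-0.23). Storage, initiation and poly(A) tail genes had medians of 0.02, -0.04 and 0.08.

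Named by the smallest p in each direction, the genes fitted higher were Paip1, Dazl and Asz1. Paip1, which binds poly(A)-binding protein and aids initiation, ran from 82.1 to 148 CPM in the WT group and from 141 to 331 CPM in the Parg(110)-/- group (log2 fold change 0.70, SE 0.24, adjusted p = 0.438 in edgeR). The groups touched only at the ends. Dazl, a germ cell protein that promotes translation of stored messages, had medians of 2.40 and 11.2 CPM (2.58, SE 1.07, adjusted p = 0.748 in edgeR). Its ranges overlapped, at 0 to 9.74 CPM in the WT and 0 to 61.7 CPM in the Parg(110)-/- group. Asz1, of the piRNA pathway, had a count in 3 of 9 WT-fathered and 5 of 9 Parg(110)-/--fathered embryos (adjusted p = 0.796).

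The genes fitted lower were Patl2, Exosc4 and Eif4e2. Patl2, an oocyte repressor of translation, had a count in 5 of 9 WT-fathered embryos and 1 of 9 Parg(110)-/--fathered embryos (-5.01, SE 1.78, adjusted p = 0.518 in edgeR). It was near the floor, with a median of 0.140 CPM in the WT group and a highest value of 13.9 CPM in embryo 2-2. The highest Parg(110)-/--fathered embryo had 0.747 CPM. Exosc4, a subunit of the RNA exosome, had a count in 6 of 9 and 3 of 9 (adjusted p = 0.671). Eif4e2, a cap-binding protein that competes with Eif4e and represses translation, had medians of 83.1 and 41.8 CPM (-0.64, SE 0.32, adjusted p = 0.872).

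In the 9 comparisons of one embryo edgeR called 1 transcript of the list, in embryo 7-3, where it called 0.103% of all transcripts. Fmr1 (NM_008031), which encodes an RNA-binding repressor of translation, fell in embryo 7-3, with 4 counts (0.911 CPM) there against 65.7 to 578 CPM in the 9 WT-fathered embryos (log2 fold change -8.02, SE 1.57, adjusted p = 0.0832 in edgeR). In the other 8 Parg(110)-/--fathered embryos it lay between 31.4 and 415 CPM, and in the comparison of the groups it had a log2 fold change of -0.78 (adjusted p = 0.946). The call in embryo 7-3 was lost at a threshold of 0.05, with a minimum of 10 counts in 5 embryos, and without father 1. DESeq2 called 80 of 1883 tests of the list over the 9 embryos (4.25%, between 1 and 21 per embryo), against 4.15% of all tests.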

How the data were processed

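RNA of 18 single 2-cell embryos (9 of WT, 9 of Parg(110)-/- fathers) was amplified with the WT-Ovation One-Direct kit and sequenced. The authors mapped reads to mm9 with RUM, kept those with a unique match and up to 1 mismatch, and deposited counts for each RefSeq transcript that are not normalized. The submitters' processing notes name DESeq 1.10.0. Amplifying the RNA of 1 embryo adds spread between embryos, and a read counts on every isoform. Of the transcripts, 97.4% were given a symbol. All 153 pairs of embryos were compared, and none agreed within counting error (chi-squared per degree of freedom at least 71.7).

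Differential expression was assessed in edgeR 4.0.16 (R 4.3.3) by its quasi-likelihood test after TMM scaling, with Benjamini-Hochberg adjustment over all tested transcripts and a threshold of 0.1. A minimum of 10 counts was required in at least 3 embryos for groups and fathers, and in at least 1 embryo for the comparisons of a single embryo. The fit was tested on simulated data. Standard errors were obtained as the log2 fold change over the root of the F statistic. P-values measure the spread between embryos and take embryos of one father as independent. Alternatives were DESeq2 1.42.0, limma 3.58.1 (random effect of the father), other filters, file totals in place of TMM, a threshold of 0.05, counts summed over the embryos of a father, a block for the embryo number, and leaving out each father. Leaving out each embryo was added after the data were seen. Embryo numbers did not pair the samples (median correlation of deviations 0.006 over 27 pairs with the same number).

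The members, the list of 159 symbols and the tests were chosen with earlier results of these data known. Named in the text are the 10 members, transcripts of the list that edgeR called in any comparison, the 3 with the smallest p in each direction, the 3 most correlated transcripts of each member (1 of those of Cpeb1 is not reported here), and Parg. Relatives were taken by family name, without regard to their values. Positions, lengths and 3′ ends are those of GENCODE vM1 on mm9. Levels per length use the longest coding transcript.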

Additional observations from a re-analysis of the deposited data

Results flagged for a closer look

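In 6 of 20 sets of values (10 transcripts in 2 groups of 9) the highest embryo lay far from the others, with a gap to the next that was large against the range of its group by Dixon's criterion. Chance flags about 1 in 20 groups, but on the CPM scale 32.0% of all tested transcripts in the WT group and 35.2% in the Parg(110)-/- group had such an embryo, against 2 and 4 of the 10 members. None of the 6 was flagged on the log2(CPM + 1) scale, where 1 other value of a member, in the WT group, was. Embryo 8-2 held 2 of them, Ago2 at 141 CPM (next 40.5) and Cpeb1 at 25.8 CPM (next 11.1). The others were Ddx4 at 76.6 CPM in embryo 8-3 (next 28.9), Eif4e at 706 CPM in embryo 8-1 (next 477), Cpeb1 at 20.04 CPM in embryo 3-3 (next 9.81) and Btg4 at 556 CPM in embryo 2-2 (next 323). All 4 values of the Parg(110)-/- group came from embryos of father 8.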

How the results depend on the processing

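Among the 10 members, 0 were called in the comparison of 9 with 9 embryos and in the comparisons of single fathers, under every alternative run, and 0 of the wider list in the comparison of 9 with 9. For single embryos DESeq2 made 4 member calls where edgeR made 0, and the other alternatives made 0. These 4 calls came from 90 member tests, and DESeq2 called 4.15% of all tests over the same 9 embryos. The 4 calls therefore do not set the members apart from other transcripts. Of 310 log2 fold changes of members under alternatives, 291 kept their direction. The exceptions were in 5 members. For Cpeb1 the value was -0.17 with counts summed per father, -0.23 with the father as a random effect and -0.18 with the embryo number as a replicate block, and -0.46 to 0.32 with 1 father or embryo left out. For Ago2 it was 0.013 summed per father and -0.81 to 0.14 with 1 left out, for Ybx2 -0.69 to 0.081, for Btg4 -0.083 to 0.48 and for Ddx4 -0.97 to 0.10. In the comparison of 9 with 9 embryos the lowest adjusted p of a member under any alternative was 0.324. The replicate block made 0 calls and changed no other direction. The random effect fit moved the median of all transcripts to -0.19. By median in place of mean, 6 of 10 members kept their rank of level per length. The fold changes of all 10 members in that comparison are under 2 standard errors. The cause of the reversals was not tested.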
